A study of Homo sapiens with 4 samples.

Results

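The genes described here are 43 genes of mitosis and the kinetochore that carry the work of chromosome segregation other than the kinesin motors. They were chosen by gene symbol, with earlier results of these data known. The rule took every annotated gene whose symbol starts with CENP, and 33 named regulators and structural proteins of mitosis. Of the 33 names, 27 had a probe set named for them, and together with 16 CENP genes they gave the 43 members among 14884 named genes. ANLN, DLGAP5, NUF2, TACC3, TPX2 and UBE2C were not analysed here, and the pseudogene CENPBD2P was left out. Each member had exactly 1 probe set. RNA came from U2OS cells, an established human osteosarcoma line, transfected by lipofection with siRNA at 50 nM and studied after 48 hours. One group of 2 arrays received a scrambled control siRNA and the other group of 2 arrays received siRNA against BRPF3, a scaffold protein of histone acetyltransferase complexes built on KAT7. Both groups thus share the cell line, the transfection and the dose. The study asked how transcript levels differ after depletion of BRPF3. No probe set was named for BRPF3, so its depletion was not checked on these arrays, and what the siRNA does through BRPF3 cannot be told apart from anything else it does.

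Mitosis begins when cyclin B and CDK1 become active together, helped by CDC25 phosphatases and Polo kinase, and ends when the anaphase promoting complex destroys cyclin B and securin. Kinetochores are built on centromeric nucleosomes that hold the histone CENPA, through a constitutive inner layer of CENP proteins and an outer layer that grips microtubules. The spindle assembly checkpoint holds back anaphase until every kinetochore is attached. Many of these genes are transcribed late in the cell cycle, under control of the MuvB complex with B-MYB and FOXM1 and of the factor NF-Y. MuvB contacts a short element near the start site, the cell cycle genes homology region or CHR, and NF-Y binds the CCAAT box.

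The sequences below are the 100 bases before the annotated start of 9 members. They are shown because they carry 1 or both of the elements through which this gene group is commonly recognised. Of the 9 only HMMR and CCNB1 passed the test between the siRNAs that is described below. Of the 43 members 35 had at least 1 window in a RefSeq promoter table (GRCh38.p14), each holding 250 bases before and 50 after the start, with 47 windows in all. The 9 are the members with a single window and a CHR hexamer within 40 bases before the start, and CCNB1. The hexamer was searched as TTTGAA or TTCGAA and the NF-Y box as CCAAT, on both strands. Capitals mark matches to either, which overlap in HMMR and MKI67, and each line runs 5′ to 3′ on the strand of the gene.
HMMR: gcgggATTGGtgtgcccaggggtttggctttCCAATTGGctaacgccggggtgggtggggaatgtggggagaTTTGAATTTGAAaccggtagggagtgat
CCNB1: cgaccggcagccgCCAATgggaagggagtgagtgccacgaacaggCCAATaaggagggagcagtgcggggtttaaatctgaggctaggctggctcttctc
PLK1: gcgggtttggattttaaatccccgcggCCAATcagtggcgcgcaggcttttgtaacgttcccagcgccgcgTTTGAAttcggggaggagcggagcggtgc
BUB1B: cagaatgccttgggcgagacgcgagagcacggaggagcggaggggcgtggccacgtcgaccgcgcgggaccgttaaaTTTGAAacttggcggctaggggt
CCNB2: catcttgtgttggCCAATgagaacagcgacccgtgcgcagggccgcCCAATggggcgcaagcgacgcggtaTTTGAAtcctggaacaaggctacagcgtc
MKI67: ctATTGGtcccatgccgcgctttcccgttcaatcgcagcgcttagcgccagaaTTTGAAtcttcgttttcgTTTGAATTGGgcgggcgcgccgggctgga
CKAP2L: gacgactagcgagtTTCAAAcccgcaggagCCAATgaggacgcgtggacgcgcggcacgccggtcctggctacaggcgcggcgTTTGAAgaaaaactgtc
PRC1: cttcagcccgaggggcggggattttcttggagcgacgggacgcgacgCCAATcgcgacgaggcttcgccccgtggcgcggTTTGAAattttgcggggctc
CENPA: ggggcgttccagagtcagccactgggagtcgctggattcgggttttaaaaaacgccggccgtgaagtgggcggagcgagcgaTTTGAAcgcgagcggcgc
On the plus strand lie HMMR chr5:163460532-163460631, CCNB1 chr5:69167050-69167149, PLK1 chr16:23678789-23678888, BUB1B chr15:40160969-40161068, CCNB2 chr15:59105046-59105145 and CENPA chr2:26785956-26786055. On the minus strand lie MKI67 chr10:128126424-128126523, CKAP2L chr2:112764610-112764709 and PRC1 chr15:90994536-90994635. All of these stretches lie immediately upstream of the annotated transcript.

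In HMMR 2 copies of the hexamer stood in direct succession, with first bases at -28 and -22 from the start. PLK1 and CCNB2 both had it at -29, BUB1B at -23, PRC1 at -20, CENPA at -18 and CKAP2L at -17. These genes were picked for a hexamer within 40 bases before the start, so a position in that stretch follows from the choice. CCNB1 had no match to the searched hexamer in its window but held a pair of CCAAT boxes at -87 and -55, and CCNB2 held its own pair at -87 and -54. A hexamer lying wholly within the 40 bases before the start was found in 11 of 47 member windows (23.4%) and in 1.93% of all 35116 windows of the table. As 7 members had several windows, the shares were also taken by gene. They were 11 of 35 members (31.4%) and 2.43% of all 27305 genes with a window. In the whole window the hexamer was found in 53.2% of member windows and 16.4% of all windows, and CCAAT in 70.2% and 34.6%. These matches are a description of letters, and no binding was measured.

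The members with the hexamer close to the start did not share a direction. Among the 11 of them 5 differences between the siRNAs were below 0 and 6 above, from -0.57 for HMMR to 0.18 for CENPA on the log2 scale, with a median of 0.01. Among the 24 members with a window but without a hexamer there, 14 were below 0 and 10 above, with a median of -0.07. Split by a hexamer anywhere in the window, the medians stood in the other order. The 22 members with one had 13 differences below 0 and 9 above (median -0.10). The 13 members without one had 6 below 0 and 7 above (median 0.0027).

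**Figure D1:**
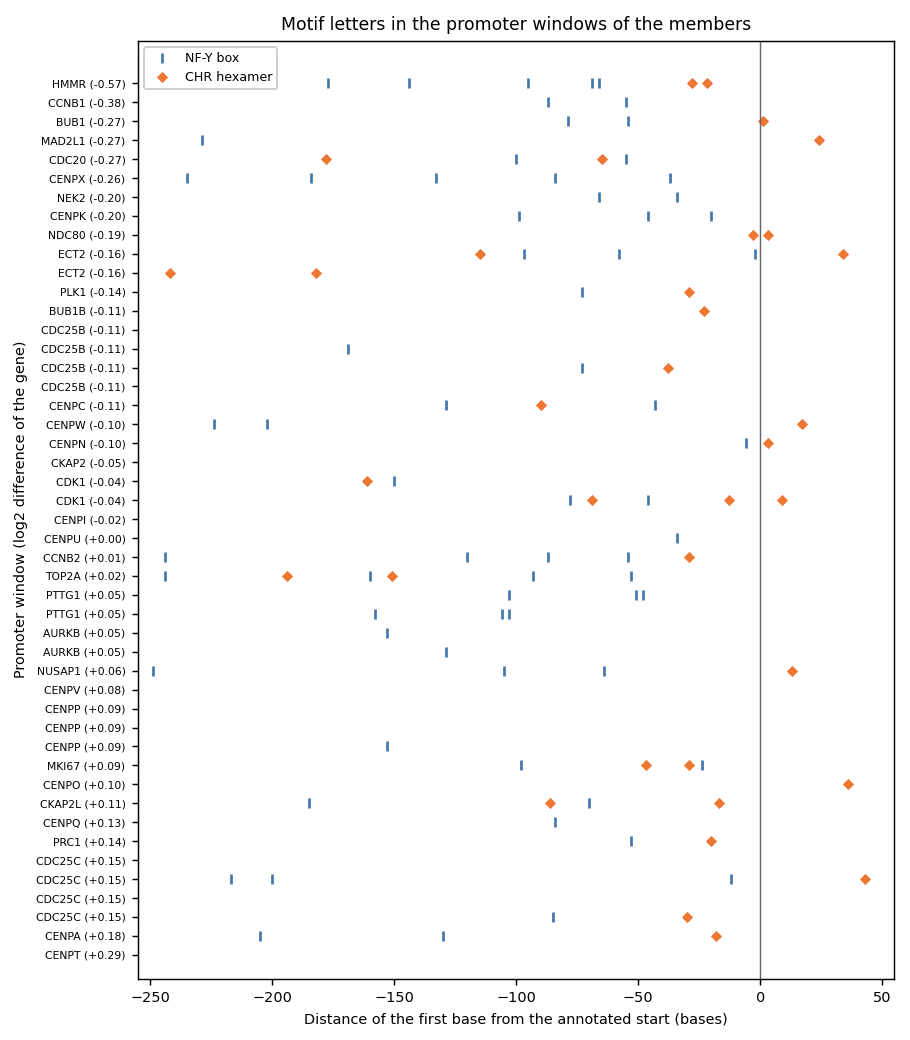
First bases of CHR hexamers (diamonds) and NF-Y boxes (bars) against the distance from the annotated start in bases, for the 47 promoter windows of 35 members, ordered by the log2 difference of the gene between the siRNAs. Hexamers gather in the bases just before the start both among genes with differences below 0 (top) and among genes with differences above 0 (bottom).

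All 43 members lay above the intensity bound of the test, the median of all probe sets (4.59 on the log2 scale), as did 10696 genes in all. Precision is limited by the number of arrays. The labels call the arrays of a group biological replicates without saying how separate the cultures were, so each p-value reflects only the scatter among these arrays, which may be technical. Over all genes tested the values of the 2 arrays of a group had differences with an SD of 0.17 in the control group and 0.20 in the BRPF3 siRNA group. Of 8 osteoblast and mesenchymal markers fixed for the labelled cell type, 4 had a probe set. RUNX2 (mean 6.39) and VIM (10.42) lay above the bound, SP7 (4.66) barely above it and TWIST1 below it. The 3 endothelial markers with a probe set lay below the bound, as did 2 of 3 leukocyte and 2 of 6 epithelial markers. Epithelial EPCAM (8.05) and CLDN4 (6.82) and leukocyte CD68 (8.55) lay above RUNX2, and epithelial KRT14 (5.25) and KRT19 (4.77) below it. Over all cell types none of the 8 markers tested passed the test between the groups (limma, where 2 had an unadjusted p under 0.05).

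After BRPF3 siRNA each of the 43 members had a mean within 1.5-fold of its control level. HMMR and CCNB1 fell and CENPM rose, and the other 40 members did not pass the test (limma's moderated test on the deposited log2 values, Benjamini-Hochberg adjusted p under 0.05 over all 10696 genes). That is 3 of 43 members, or 6.98%, against 15.8% of all genes tested. By direction 1 member rose, where 6.32% of all genes did, and 2 fell, where 9.44% did. At an unadjusted p under 0.05 stood 11 members (25.6%), 3 higher and 8 lower, against 34.6% of all genes, 14.8% higher and 19.8% lower. The share of changed genes among the members was thus no higher than the background. In RNA from whole cultures, fewer cells in mitosis and less RNA per cell cannot be told apart.

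No member differed by as much as 1.5-fold, while 5.1% of all genes tested did. The median size of a member's difference was 1.08-fold, against 1.12-fold over all genes. The 95% interval of the difference lay wholly within 1.5-fold in either direction for 41 of 43 members, the exceptions being HMMR and CENPL, and for 77.1% of all genes tested. Of the members 23 had a difference below 0 and 20 above, with a median of -0.04, and over all genes 55.1% were below 0 with a median of -0.03. Both BRPF3 siRNA arrays lay outside the range of both control arrays for 27 members (62.8%), 10 higher and 17 lower, against 63.2% of all genes, 27.3% higher and 35.9% lower. These shares are near those of all genes.

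The balance of directions depended on the scaling. Quantile normalization moved the differences of all 43 members upward by 0.0010 to 0.12 and cyclic loess by 0.0042 to 0.10, with a median move of 0.07 for both. With it 25 members stood above 0 after quantile normalization and 24 after cyclic loess, and the median of the members turned to 0.04 in both. The median over all genes tested shifted less, by 0.032 and 0.030, to 3.6e-05 and -0.0019. Among all changed genes the share that fell went from 59.9% on the deposited values to 48.4% and 49.0%. The sign of 5 members, BIRC5, CDK1, CENPI, CENPN and CKAP2, turned from below to above 0 after quantile normalization, and of the same genes without CENPN after cyclic loess.

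**Figure D2:**
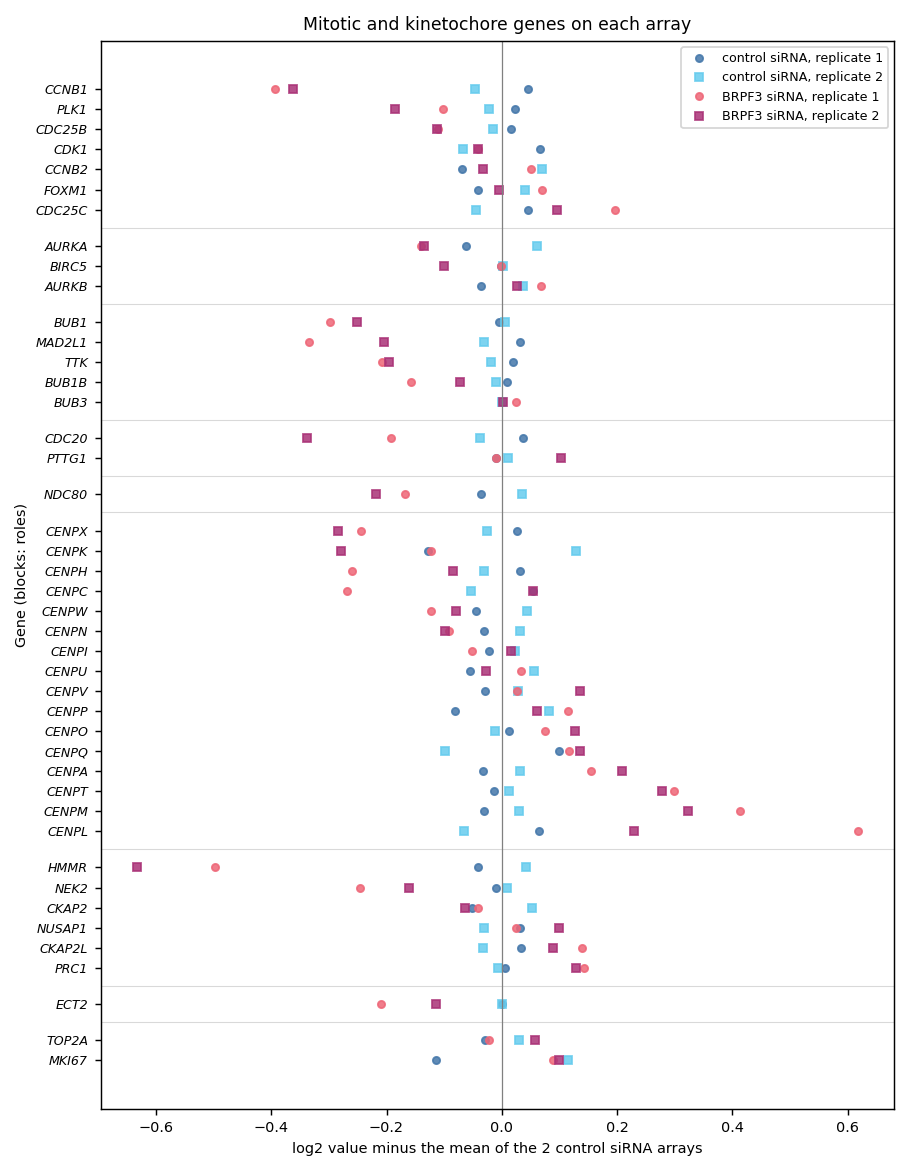
Log2 value of each of the 43 members on each of the 4 arrays, minus the mean of both control siRNA arrays of that gene; blocks are the roles described in the text, circles replicate 1 and squares replicate 2. For HMMR, CCNB1, BUB1 and CENPX both BRPF3 siRNA arrays lie to the left of both control arrays, for CENPT, CENPM and CENPL to the right, while CDK1, CCNB2 and TOP2A overlap.

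Among genes of mitotic entry CCNB1 fell and its partners did not pass. CCNB1, the cyclin that activates CDK1 at the onset of mitosis, had log2 values of 10.32 and 10.23 with control siRNA, against 9.88 and 9.91 with BRPF3 siRNA. Both BRPF3 siRNA arrays were below both control arrays, a fall of 1.30-fold (-0.38 ± 0.08 on the log2 scale, adjusted p = 0.0353). The error after each log2 difference is the SE moderated by limma, from 2 arrays in either group. CCNB2, the second B-type cyclin, read 9.77 and 9.91 on control arrays and 9.89 and 9.81 on BRPF3 siRNA arrays, so that the groups overlapped (0.01 ± 0.09, 95% interval -0.21 to 0.23). CDK1, the kinase both cyclins activate, read 9.66 and 9.52 against 9.55 on both BRPF3 siRNA arrays and differed by -0.04 ± 0.09 (interval -0.25 to 0.17). The intervals of CCNB2 and CDK1 leave room for differences of either sign no larger than about those limits. PLK1, the Polo kinase that also acts at centrosomes and kinetochores, read 11.64 and 11.60 against 11.52 and 11.43 (-0.14 ± 0.08, adjusted p = 0.264). Its arrays separated, but the difference did not pass. The phosphatases that release CDK1 from inhibition did not pass either, CDC25B at -0.11 ± 0.08 and CDC25C at 0.15 ± 0.09. FOXM1, the forkhead factor that drives transcription of this programme, read 10.89 and 10.97 against 10.999 and 10.926 and differed by 0.03 ± 0.08 (interval -0.17 to 0.24), with overlapping groups.

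The fall of CCNB1 did not pass after quantile normalization (-0.29, adjusted p = 0.0666) or cyclic loess (-0.29, adjusted p = 0.0637). It also did not pass with either control array left out (adjusted p = 0.184 and 0.133 without replicate 1 and 2) or with either BRPF3 siRNA array left out (0.0902 and 0.0776).

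Aurora kinases and their partner did not pass. AURKA, which builds the spindle poles, read 8.75 and 8.88 on control arrays and 8.67 and 8.68 on BRPF3 siRNA arrays (-0.14 ± 0.08, adjusted p = 0.300). AURKB, the kinase of the chromosomal passenger complex that corrects faulty attachments, read 10.06 and 10.13 against 10.16 and 10.12 (0.05 ± 0.08, interval -0.15 to 0.24). BIRC5, or survivin, a subunit of the same complex, differed by -0.05 ± 0.08. The arrays of AURKB and BIRC5 overlapped between groups, and those of AURKA separated by less than the spread between its control arrays.

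The 5 genes of the spindle assembly checkpoint included 4 with differences below 0 (80%, against 55.1% of all genes), and 0 of them passed the test. BUB1, the kinase that recruits checkpoint proteins to the kinetochore, read 10.37 and 10.38 on control arrays and 10.08 and 10.12 on BRPF3 siRNA arrays. The groups were separated by far more than the SD within them (0.01 for control and 0.03 for BRPF3 siRNA), and the difference was -0.27 ± 0.08 (interval -0.47 to -0.08, adjusted p = 0.0644). The moderated SE of BUB1 is drawn towards the variance of all genes and exceeds what its own arrays show. MAD2L1, the protein that sequesters CDC20 when attachment fails, read 8.84 and 8.78 against 8.47 and 8.60 (-0.27 ± 0.09, adjusted p = 0.0900). TTK, the kinase known as MPS1 that starts checkpoint signalling, read 9.43 and 9.39 against 9.20 and 9.21 (-0.20 ± 0.08, adjusted p = 0.126). BUB1B, the inhibitor BubR1, was at -0.11 ± 0.08, and BUB3, which carries BUB1 and BUB1B to the kinetochore, was at 0.01 ± 0.08 with control values of 10.41 on both arrays. The median over the 5 genes was -0.20, against -0.03 over all genes tested, and the 5 were not tested as a set. After quantile normalization, which moved all 43 members upward, BUB1 was at -0.18 and MAD2L1 at -0.20.

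CDC20, the activator of the anaphase promoting complex that the checkpoint restrains, read 11.25 and 11.17 on control arrays and 11.02 and 10.87 on BRPF3 siRNA arrays (-0.27 ± 0.09, adjusted p = 0.0990). All BRPF3 siRNA values lay below the control values, without passing the test. PTTG1, or securin, the guardian of separase, differed by 0.05 ± 0.08 with overlapping arrays. It shares sequence with near-identical relatives such as PTTG2, so its probe set is uncertain. NDC80, a subunit of the complex that holds microtubules at the outer kinetochore, read 10.28 and 10.35 against 10.15 and 10.10 (-0.19 ± 0.08, adjusted p = 0.151).

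The calls among these genes near the threshold rested on how the variance was modelled. When limma was allowed to let the variance depend on intensity, 12 members passed (27.9%, against 24.7% of all genes), 3 higher and 9 lower. They were the 3 genes named at the outset together with BUB1 (adjusted p = 0.00487), CDC20 (0.00897), CENPX (0.0120), MAD2L1 (0.0279), NDC80 (0.0305), CENPL (0.0328), TTK (0.0380), PLK1 (0.0461) and CENPT (0.0467). After quantile normalization on the other hand the differences of BUB1, CDC20, NDC80 and PLK1 shrank to -0.18, -0.16, -0.11 and -0.03.

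**Figure D3:**
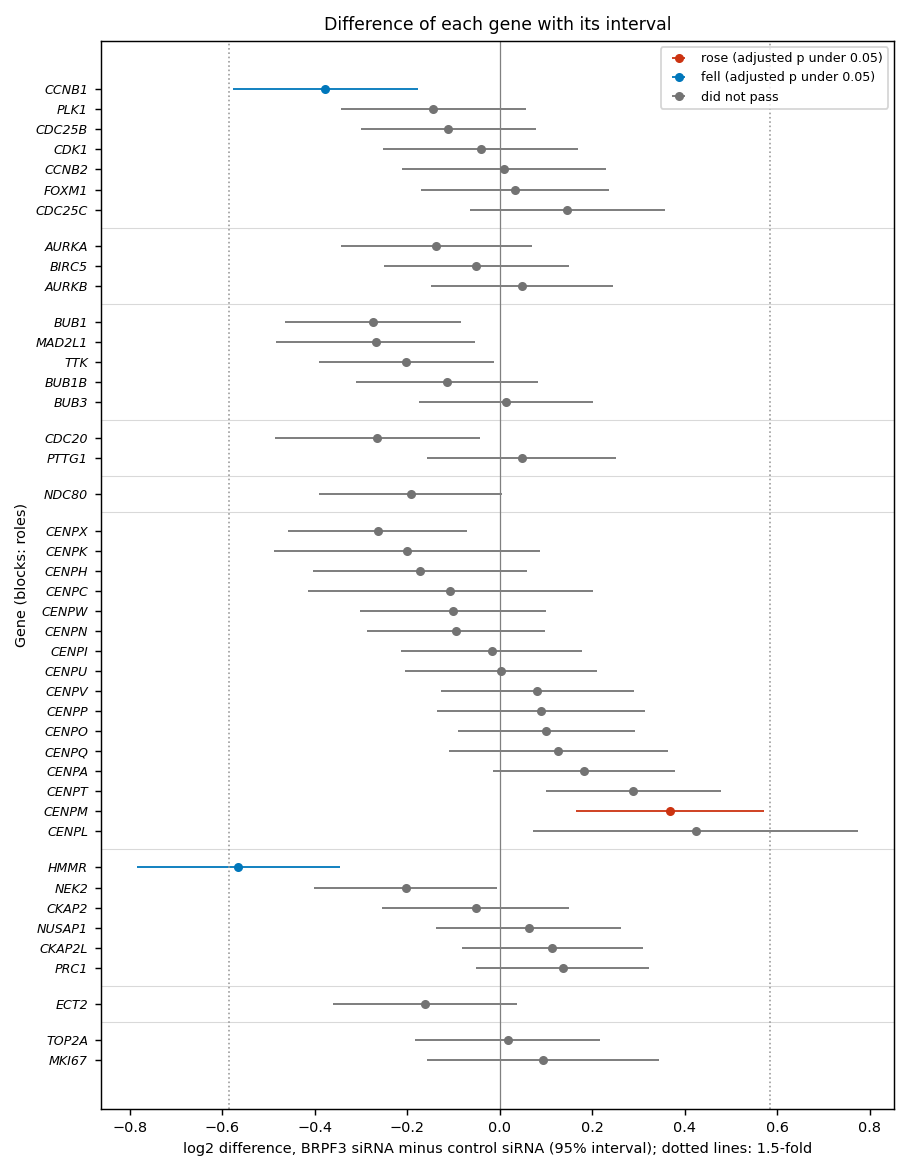
Log2 difference of each member, BRPF3 siRNA minus control siRNA, with its 95% interval from limma; dotted lines mark 1.5-fold in either direction and colours the result of the test. HMMR and CCNB1 fell, CENPM rose, and only the intervals of HMMR and CENPL reach past a dotted line.

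Among the 16 CENP genes 1 rose (6.25%, against 6.32% of all genes), 0 fell (against 9.44% of all genes) and 15 did not pass. Of their differences 9 were above 0 and 7 below (median 0.04). CENPM, a subunit of the inner kinetochore with the fold of a small GTPase, had log2 values of 7.97 and 8.03 on control siRNA arrays and 8.41 and 8.32 on BRPF3 siRNA arrays. Both BRPF3 siRNA arrays were above both control arrays, a rise of 1.29-fold (0.37 ± 0.08, adjusted p = 0.0383). CENPM remained called after quantile normalization and cyclic loess (0.425 and 0.423). Over 15 alternatives, which include each array left out, its difference ran from 0.323 to 0.425. Its partners in the same subcomplex stood elsewhere. CENPH read 7.72 and 7.65 against 7.42 and 7.60 (-0.17 ± 0.09), CENPI was at -0.02 ± 0.08, and CENPK was at -0.20 ± 0.12 with values that overlapped between groups.

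CENPL had the highest difference of all members and did not pass. It read 7.48 and 7.35 on control arrays and 8.04 and 7.65 on BRPF3 siRNA arrays, and the gap between the BRPF3 siRNA arrays (SD 0.28) left a wide interval (0.42 ± 0.14, 0.07 to 0.77, adjusted p = 0.0976). Without BRPF3 siRNA replicate 2 the difference was 0.62, and without replicate 1 it was 0.23. CENPN, which pairs with CENPL to read the centromeric nucleosome, was at -0.10 ± 0.08.

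CENPT, which links the inner layer to the NDC80 complex through its long flexible arm, read 6.71 and 6.73 on control arrays and 7.02 and 7.0 on BRPF3 siRNA arrays. The groups did not overlap (SD 0.018 for control and 0.015 for BRPF3 siRNA), and the adjusted p of 0.0564 missed the threshold (0.29 ± 0.08). Over 15 alternatives, which include each array left out, the difference of CENPT ran from 0.28 to 0.31. It passed in 5 of them, among them cyclic loess (adjusted p = 0.0497), and not after quantile normalization (0.0522). The 5 include the threshold of 0.1, which the adjusted p of 0.0564 already met. They also include protein-coding genes alone, a setting added after seeing the data. CENPT joins with the histone fold proteins CENPW and CENPX. CENPW was at -0.10 ± 0.08, and CENPX read 9.58 and 9.53 against 9.31 and 9.27 (-0.26 ± 0.08, adjusted p = 0.0724), the lowest of the CENP genes. Members of this one complex thus lay on both sides of 0.

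The histone CENPA, which marks the centromere, read 8.95 and 9.02 on control arrays and 9.14 and 9.19 on BRPF3 siRNA arrays (0.18 ± 0.08, adjusted p = 0.170). CENPC, which binds CENPA nucleosomes and scaffolds the kinetochore, was at -0.11 ± 0.13 and had values of 7.17 and 7.49 after BRPF3 siRNA that enclosed its lower control value. Of the subunits of the CENP-O group, CENPO was at 0.10 ± 0.08, CENPP at 0.09 ± 0.09, CENPQ at 0.13 ± 0.10 and CENPU at 0.0027 ± 0.08, and 0 of these 4 passed the test. ITGB3BP, also known as CENP-R and no member by its symbol, belongs to the same group and was at -0.23 ± 0.08 (adjusted p = 0.101, not passed). CENPV, a protein of the centromere and the midzone, was at 0.08 ± 0.08.

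HMMR showed the largest difference of all members. HMMR, the hyaluronan receptor RHAMM that also holds spindle poles together, had log2 values of 9.86 and 9.95 on control siRNA arrays and 9.41 and 9.27 on BRPF3 siRNA arrays. The groups did not overlap, and HMMR fell 1.48-fold (-0.57 ± 0.09, interval -0.79 to -0.35, adjusted p = 0.0186). It fell after quantile normalization (-0.48) and cyclic loess (-0.49) as well. Over 15 alternatives, which include each array left out, the difference of HMMR ran from -0.63 to -0.48.

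The other 5 spindle and centrosome genes did not pass. PRC1, which bundles antiparallel microtubules of the central spindle, read 9.77 and 9.76 on control arrays and 9.91 and 9.90 on BRPF3 siRNA arrays (0.14 ± 0.08, adjusted p = 0.264), with both groups tight and apart. NEK2, a kinase that splits centrosomes, was at -0.20 ± 0.08. NUSAP1, which binds microtubules around chromosomes, was at 0.06 ± 0.08, and CKAP2 and CKAP2L, proteins of the spindle, were at -0.05 ± 0.08 and 0.11 ± 0.08. ECT2, the exchange factor that activates RhoA for cytokinesis, read 10.23 on both control arrays and 10.02 and 10.11 on BRPF3 siRNA arrays (-0.16 ± 0.08, adjusted p = 0.216).

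The common proliferation markers TOP2A and MKI67 did not pass the test. TOP2A, the topoisomerase that untangles sister chromatids, read 11.38 and 11.44 on control arrays and 11.39 and 11.47 on BRPF3 siRNA arrays (0.02 ± 0.08, interval -0.18 to 0.22). MKI67, the Ki-67 protein that coats mitotic chromosomes, read 10.92 and 11.15 against 11.13 and 11.14 (0.09 ± 0.10, interval -0.16 to 0.34). The groups overlapped for both genes, and for MKI67 the control arrays lay further apart than the group means. After quantile normalization they were at 0.13 and 0.21 and did not pass.

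Other genes of mitosis were read from lists of 113 names, of which 80 had a probe set and 79 were tested. These lists too were chosen with earlier results of these data known. Of the 79, 2 rose and 10 fell, or 15.2% against 15.8% of all genes. By direction 2.53% rose, against 6.32% of all genes, and 12.7% fell, against 9.44%. Among 13 other kinetochore genes 0 rose and 3 fell (23.1%, against the same 9.44% of all genes). SPDL1, or spindly, which brings dynein to kinetochores, read 8.79 and 8.94 on control arrays and 8.03 and 8.11 on BRPF3 siRNA arrays and fell 1.74-fold (-0.80 ± 0.09, adjusted p = 0.0108). OIP5 and MIS18A, subunits of the complex that licenses loading of CENPA, fell by 0.57 ± 0.08 and 0.38 ± 0.08 on the log2 scale. HJURP, the chaperone that deposits CENPA, had the highest moderated t of the list and did not pass (0.23 ± 0.08, adjusted p = 0.103).

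Of 17 subunits and regulators of the anaphase promoting complex 0 rose and 3 fell (17.6%, against 9.44% of all genes), namely CDC16 (-0.46 ± 0.09), CDC26 (-0.44 ± 0.08) and ANAPC13 (-0.40 ± 0.08), and ANAPC15 was the highest (0.26 ± 0.10, not passed). CDC16 is a scaffold subunit of the complex, and CDC26 and ANAPC13 are small subunits that steady it. Of 12 genes of cohesin and its regulators MAU2, which loads cohesin, fell (-0.44 ± 0.08) and ESPL1, the separase that PTTG1 restrains, rose (0.51 ± 0.11, adjusted p = 0.0375). Either is 8.33% of the list, where 9.44% of all genes fell and 6.32% rose. Of 10 other genes of mitotic entry 0 rose and 2 fell (20.0%, against 9.44% of all genes), namely CCNA2 (-0.59 ± 0.08), the cyclin of S phase and G2, and CKS2 (-0.40 ± 0.10), a small partner of CDK1, while CDC14A had the highest moderated t (0.12 ± 0.08, not passed).

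Of 7 partners of Aurora B and the checkpoint SGO2, a protector of centromeric cohesion, fell (-0.40 ± 0.09). That is 14.3%, against 9.44% of all genes. SGO1 was the highest of them (0.05 ± 0.08, not passed). Of 11 MuvB and DREAM factors MYBL1, a relative of B-MYB, rose (0.39 ± 0.09), which is 9.09%, against 6.32% of all genes. In this list 0 fell, against 9.44% of all genes, with RBBP4 the lowest (-0.21 ± 0.08, not passed). MYBL2, which is B-MYB itself, was at 0.32 ± 0.09 (adjusted p = 0.0555). Neither of 2 condensin genes passed, SMC4 (-0.13 ± 0.08) and SMC2 (-0.06 ± 0.09), and 0 of 7 cytokinesis genes passed, from CHMP4B (-0.18 ± 0.08) to SAPCD2 (0.14 ± 0.09). Of all genes tested 15.8% passed. Of the 12 changed genes of these lists MIS18A, ANAPC13 and CKS2 lost their calls under both quantile normalization and cyclic loess, and SGO2 under quantile normalization. None of the 12 passed with either control array left out, settings in which 0 of all genes passed (2432 and 2465 had an unadjusted p under 0.05 in limma). Without BRPF3 siRNA replicate 1, 5 of the 12 passed, without its replicate 2, 4 passed, and with no intensity filter 2 passed, SPDL1 and CCNA2.

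**Figure D4:**
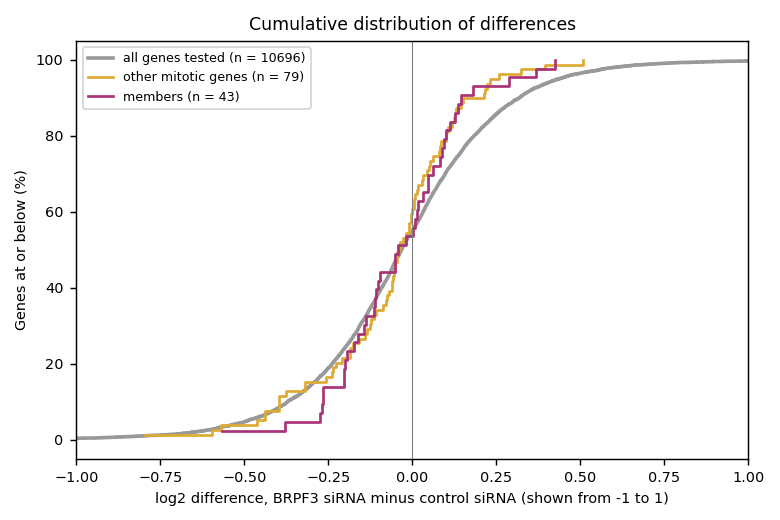
Cumulative share of genes in percent against the log2 difference, BRPF3 siRNA minus control siRNA, for the 43 members, the 79 other mitotic genes and all 10696 genes tested, drawn from -1 to 1. The medians lie close together (-0.04, -0.04 and -0.03), and no member reaches 1.5-fold, so that the curve of the members ends well inside that of all genes.

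The number of members that passed depended on the settings. It was 9 with the intensity filter at the 75th percentile, which tested fewer genes (21.4% of 42 members against 34.1% of all genes). Without a filter it was 0, where 2.75% of all genes passed and the smallest adjusted p of a member in limma was 0.0539. There 9 of 43 members had an unadjusted p under 0.05, and 3842 of 14884 genes did. HMMR passed in each setting that called any member except the one without BRPF3 siRNA replicate 2, where CENPL was the 1 member that passed.

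**Figure D5:**
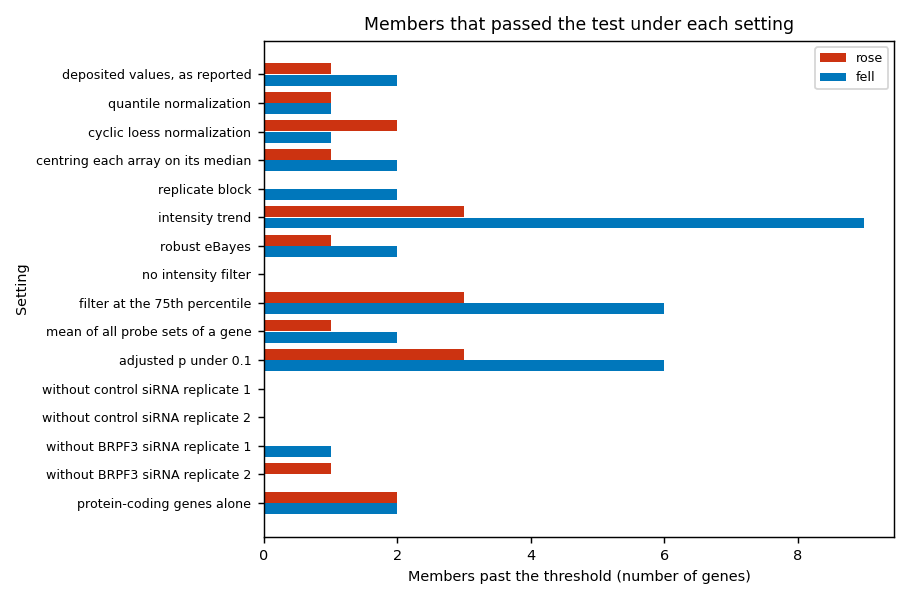
Number of members that rose and that fell at the threshold under each setting of the analysis; bars start at 0. The deposited values gave 1 risen and 2 fallen members, and the intensity trend gave 3 and 9. With no intensity filter no member passed, against 2.75% of all genes.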

How the data were processed

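Transcripts of U2OS cells were measured on Affymetrix whole-transcript arrays, 1 per sample, in 2 groups of 2. The authors deposited log2 values of 53617 probe sets, made with RMA per the submitters' processing notes (version and settings not given in the sources used here), which ran from 0.80 to 13.57 and were used as deposited. RMA removes shifts common to all transcripts and compresses differences of dim probe sets.

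GEO's platform annotation gave 1 gene symbol to 16098 probe sets, several to 0 and none to 37519. All 16098 identifiers matched RefSeq (GRCh38.p14), used for names and gene class. The probe set with the highest mean was kept for each of 14884 genes, and genes with a mean below the median probe set were dropped. Differences were fitted by limma 3.58.1 under R 4.3.3 (lmFit, eBayes; 2 residual and 3.81 prior degrees of freedom; two-sided), adjusted over 10696 genes. An exact permutation test of 2 against 2 arrays cannot go below p = 0.333. The procedure was tested on simulated data.

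Members and lists were chosen with earlier results of these data known. Named with full values were members that passed, the highest and lowest of each role by moderated t and 16 fixed names, of which CENPE and CENPF were not analysed here; other genes with array values, and ITGB3BP, were chosen after their values were seen. Promoter letters came from RefSeq windows; 8 members had no window (AURKA, BIRC5, BUB3, CENPH, CENPL, CENPM, FOXM1, TTK). Alternatives were another scaling, filter, variance model, probe set rule or threshold, a replicate block and each array left out; protein-coding genes alone was added after seeing the data.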

Additional observations from a re-analysis of the deposited data

How the results depend on the processing

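Of 43 members 3 changed on the deposited values, and between 2 and 4 did under quantile normalization, cyclic loess, median centring, robust fitting, the mean of probe sets, protein-coding genes alone (an alternative chosen after seeing the data) and the replicate block. Those 2 to 4 are 4.65% to 9.30% of the members, against 13.9% to 19.0% of all genes tested. The count was 12 with an intensity trend (27.9%, against 24.7% of all genes). It was 9 with a filter at the 75th percentile (21.4% against 34.1%) and 9 at an adjusted p under 0.1 (20.9% against 26.9%). Without a filter it was 0, against 2.75% of all genes. Over all genes the count of 1686 moved to 2645 with an intensity trend, 409 without a filter and 2877 at an adjusted p under 0.1, and was 0 to 755 when any single array was dropped. Where an array was left out, the spread of the array that remained alone was taken from the group with both arrays. The members' median of -0.04 turned to 0.04 after quantile normalization and cyclic loess (0.0426 and 0.0353), where that of all genes was 3.6e-05 and -0.0019. The members' median lay between -0.053 and -0.00065 when any single array was dropped. CDK1 turned to 0.0426 after quantile normalization and 0.0353 after cyclic loess. With an array left out CDK1 ran from -0.11 to 0.025, FOXM1 from -0.0083 to 0.073, MKI67 from -0.021 to 0.21, TOP2A from -0.023 to 0.057 and PTTG1 from -0.0095 to 0.10, none of them called. Of 314 values of 21 named members under an alternative, 274 kept direction and side of the threshold, 14 newly passed, 17 no longer passed and 9 changed sign; the cause was not tested. The share of windows with the CHR hexamer, 53.2%, was 29.8% in the 150 bases before the start alone, against 16.4% and 7.87% of all windows.

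The labels give both groups replicate numbers 1 and 2 without saying that a number marks a shared day or batch. Deviations of same-numbered arrays had a correlation of 0.14 across all genes tested and -0.13 across the members, and genes are not independent replicates. With the replicate block 2 members changed, HMMR and CCNB1, and 1604 genes, while CENPM (adjusted p = 0.0520) and, of the 12 other mitotic genes that had changed, ESPL1 (0.0534) did not pass. The arrays share only a number.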
